A study of Caenorhabditis elegans with 6 samples.

Results

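Small heat shock genes were followed in whole wild-type Caenorhabditis elegans exposed to the food colorants Ponceau Red or tartrazine. A probe set, the group of array probes that gives a transcript 1 signal, was taken where its deposited gene symbol equalled 1 of 10 small heat shock genes. Of these 10 genes, 8 were found, on 9 of the 27568 probe sets with a gene name. The stress-induced members were hsp-16.1, on 2 probe sets, and hsp-16.2, hsp-16.41 and hsp-16.48, on 1 each. The members known for expression without stress were hsp-12.3, hsp-12.6, hsp-43 and sip-1. No probe set had the symbol of hsp-16.11 or hsp-16.49. Both hsp-16.1 probe sets were described in the deposited annotation as hsp-16.1 and hsp-16.11 together, and that of hsp-16.48 as hsp-16.48 and hsp-16.49, so the signals of these copies cannot be told apart. In the RefSeq annotation (assembly WBcel235) hsp-16.1, hsp-16.48, hsp-16.49 and hsp-16.11 follow each other on chromosome V, hsp-16.2 and hsp-16.41 are neighbours elsewhere on V, hsp-12.3 and hsp-12.6 are neighbours on IV, and hsp-43 and sip-1 lie on X and III.

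Small heat shock proteins share the alpha-crystallin domain and hold unfolding proteins in a soluble state without using ATP, from where ATP-driven chaperones such as Hsp70 can refold them. In C. elegans the hsp-16 genes are nearly silent in unstressed animals and are switched on by heat and other protein-damaging stress through the heat shock factor HSF-1. The promoter of hsp-16.2 is a widely used stress reporter. The hsp-12 genes, hsp-43 and sip-1 are known mostly for expression in particular tissues or stages: HSP-12.6 acts downstream of insulin-like signalling through DAF-16, and SIP-1 is found in oocytes and embryos.

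There were 3 groups of 2 arrays, all from strain N2 grown at 20 °C and synchronised by bleaching. Animals of the first group were kept in 100 µM Ponceau Red and those of the second in 100 µM tartrazine, 2 synthetic azo dyes, for 48 h in S medium from 16 to 18 h after hatching. The third group was kept with water in place of a colorant. The labels give the same age, 3 days after hatching, and the same stage, young adult, for every group, and call the trials independent without saying how many animals each held. Biotin-labelled cDNA from 3.5 ng of total RNA was hybridised to Affymetrix arrays. The arrays are named by their numbers in the deposited table, which are 2 and 3 for Ponceau Red, 1 and 2 for tartrazine and 1 and 2 for water. All values are log2 RMA signals as deposited. The p-values cover no more than the variation among these 6 arrays.

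The arrays of a group were not equally alike. Across the named probe sets r was 0.844 between the Ponceau Red arrays, 0.982 between the tartrazine arrays and 0.987 between the water arrays, whereas it was 0.991 between Ponceau Red array 2 and tartrazine array 2. A list of 15 oocyte and eggshell genes averaged 7.92 log2 in Ponceau Red array 2 and 3.05 in Ponceau Red array 3, 7.68 and 7.76 in the tartrazine arrays, and 3.44 and 2.80 in the water arrays. The 6 vitellogenins, yolk proteins made by the adult intestine, averaged 10.66 and 1.98 in the Ponceau Red arrays, 9.69 and 10.33 in the tartrazine arrays, and 2.08 and 2.04 in the water arrays. These markers of egg-producing adults were therefore low in both water arrays and in Ponceau Red array 3, against the labelled young adult stage. In whole animals, fewer cells of a type and less RNA per cell cannot be told apart. Array medians were 2.14 and 2.19 in Ponceau Red, 2.22 and 2.14 in tartrazine and 2.41 and 2.36 in water. Centring the arrays on them would add 0.22 log2 to every Ponceau Red change and 0.20 to every tartrazine change. Precision is limited by having 6 arrays, and the typical 95% interval of a log2 change extended 0.65 to either side.

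The first question was whether the stress-induced hsp-16 genes differed from water after exposure to Ponceau Red or tartrazine. All 5 hsp-16 probe sets read higher in both Ponceau Red arrays than in both water arrays, as did 24.8% of all probe sets. In both tartrazine arrays 4 of 5 did so, the exception being hsp-16.41, against 33.7% of all probe sets. No hsp-16 probe set passed an adjusted p of 0.05 in limma for either colorant, with 3 of 5 under an unadjusted p of 0.05 in Ponceau Red (14.9% of all probe sets) and 1 of 5 in tartrazine (28.6%). The largest difference in both comparisons was that of hsp-16.2, at about 5-fold.

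The signal of hsp-16.2 was 4.34 and 5.15 log2 in the Ponceau Red arrays, 4.36 and 5.19 in the tartrazine arrays, and 2.17 and 2.62 in the water arrays. The water signals of hsp-16.2 lay near the array medians over all probe sets (2.41 and 2.36) and were not shown to be above background, so the folds below depend on a low signal. The colorant arrays lay 1.95 to 2.80 log2 above the mean of the water arrays, and neither colorant overlapped with water. The Ponceau Red difference was 2.35 ± 0.43 log2 (SE, n = 2 arrays per group; 5.09-fold; 95% interval 1.24 to 3.46), with a limma adjusted p of 0.0775. The tartrazine difference was 2.38 ± 0.43 log2 (5.21-fold; 95% interval 1.27 to 3.49), with a limma adjusted p of 0.0570. The signal was high both in Ponceau Red array 3, where oocyte and yolk markers were at the level of water, and in tartrazine array 2, where they were high. The difference passed for both colorants in the second deposited table, whose columns are the labelled samples, at 2.36 log2 in Ponceau Red (limma adjusted p = 0.0486) and 2.19 in tartrazine (0.0301). Of all probe sets, 2.48% passed there in Ponceau Red and 10.2% in tartrazine. In tartrazine hsp-16.2 also passed with only the 4 arrays compared (limma adjusted p = 0.00184), as did 35.1% of all probe sets. In Ponceau Red it did not pass with only the 4 arrays compared (0.163). With low signals left out hsp-16.2 passed in tartrazine (0.0493), as did 6.74% of the probe sets kept, but not in Ponceau Red (0.0695). With centred arrays it passed for neither Ponceau Red (0.0807) nor tartrazine (0.0587), nor with a trended robust prior (0.0789 and 0.0548).

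**Figure D1:**
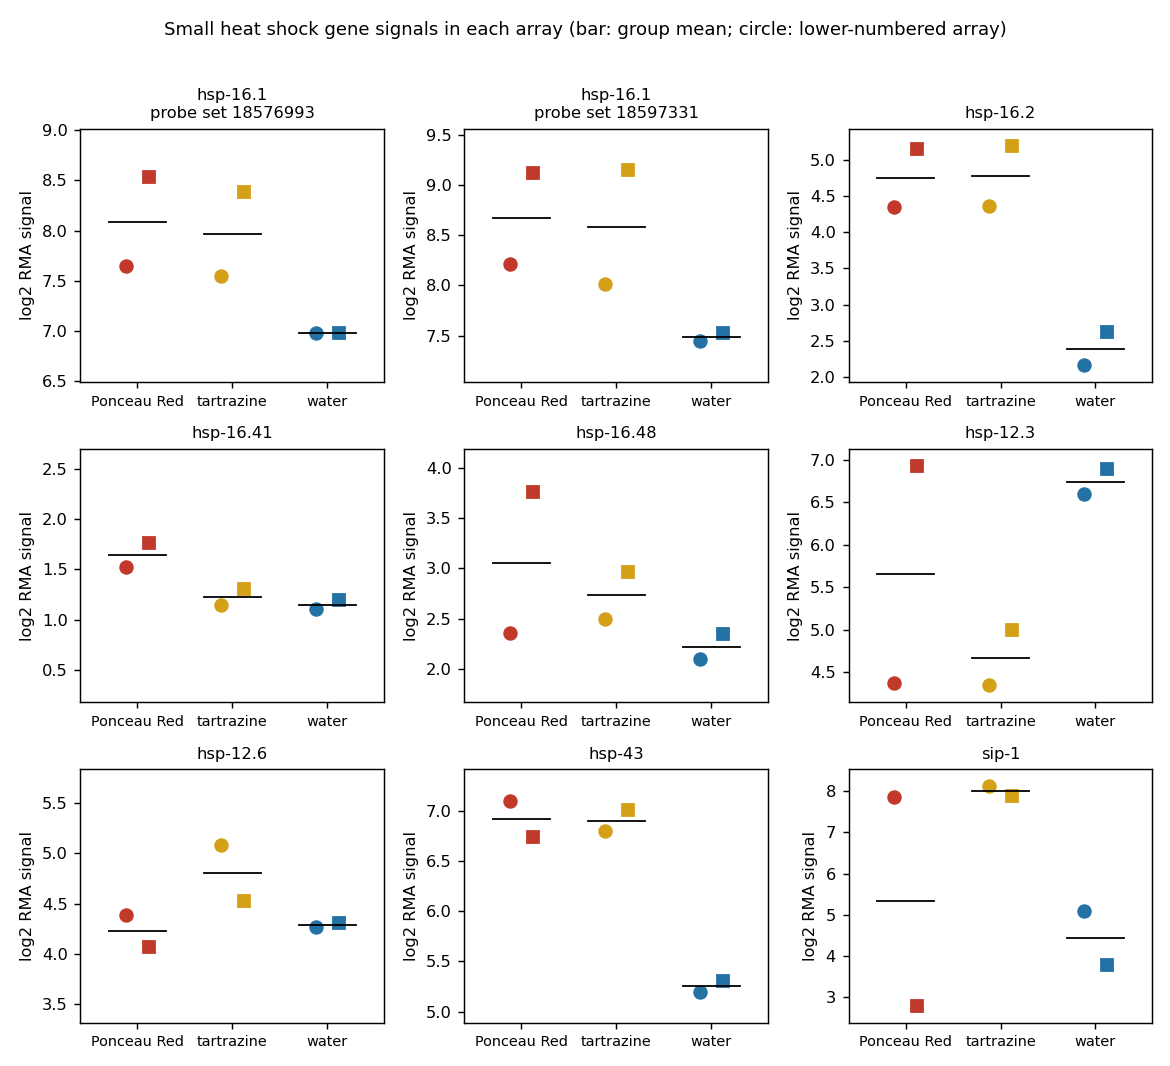
Log2 RMA signal (vertical axis, scale differs between panels) of each small heat shock probe set in the 6 arrays, with Ponceau Red, tartrazine and water from left to right; a circle marks the lower-numbered array of a group, a square the other, and the bar their mean. Both colorant groups lie above water for hsp-16.1, hsp-16.2 and hsp-43, whereas the Ponceau Red arrays lie far apart for hsp-12.3 (4.37 and 6.92) and sip-1 (7.87 and 2.78).

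The hsp-16.1 probe sets, which also read hsp-16.11, gave 2 readings of the same pattern. Probe set 18576993 read 7.64 and 8.53 log2 in the Ponceau Red arrays, 7.55 and 8.39 in the tartrazine arrays, and 6.98 and 6.98 in the water arrays. Probe set 18597331 read 8.21 and 9.12 in the Ponceau Red arrays, 8.02 and 9.15 in the tartrazine arrays, and 7.45 and 7.53 in the water arrays. On both, the water signals lay well above the array medians over all probe sets (2.41 and 2.36), unlike those of hsp-16.2. The water arrays differed by under 0.1 log2 and the arrays of each colorant by 0.84 to 1.13 log2. The Ponceau Red differences were 1.11 ± 0.42 and 1.18 ± 0.49 log2 (SE), or 2.16-fold and 2.26-fold, with limma adjusted p-values of 0.331 and 0.377. Those of tartrazine were 0.99 ± 0.42 and 1.09 ± 0.49 log2, or 1.98-fold and 2.13-fold, with limma adjusted p-values of 0.203 and 0.222. Over the 6 arrays the probe sets correlated at r = 0.99, a description of 6 points that come from 3 groups.

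The pair hsp-16.48 and hsp-16.49 read 2.35 and 3.76 log2 in the Ponceau Red arrays, 2.50 and 2.96 in the tartrazine arrays, and 2.09 and 2.35 in the water arrays. Only Ponceau Red array 3 stood well above the rest. The water signals lay near the array medians over all probe sets (2.41 and 2.36) and were not shown to be above background. Ponceau Red array 2 cleared the higher water array by a narrow margin. The differences were 0.84 ± 0.51 log2 for Ponceau Red (limma adjusted p = 0.533) and 0.51 ± 0.51 for tartrazine (limma adjusted p = 0.556), and the second deposited table gave tartrazine a difference of -0.05. An unnamed probe set marked for cross-hybridisation held the same values as that of hsp-16.48 in all 6 arrays and was not counted.

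The neighbour of hsp-16.2, hsp-16.41, read 1.52 and 1.77 log2 in the Ponceau Red arrays, 1.15 and 1.30 in the tartrazine arrays, and 1.11 and 1.19 in the water arrays. It was the 1 of 9 member probe sets that a filter on low signal, run as an alternative, removed. The Ponceau Red arrays lay above the other 4, with a difference from water of 0.49 ± 0.17 log2 (limma adjusted p = 0.294). The tartrazine arrays overlapped with water (0.07 ± 0.17 log2, limma adjusted p = 0.819), a difference that was -0.19 in the second deposited table.

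In each colorant the same array gave the higher signal on all 5 hsp-16 probe sets. This was Ponceau Red array 3 over array 2 and tartrazine array 2 over array 1. The mean over the 5 probe sets was 4.82 and 5.67 log2 in the Ponceau Red arrays, 4.71 and 5.40 in the tartrazine arrays, and 3.96 and 4.13 in the water arrays. The hsp-16 genes were thus higher in the Ponceau Red array whose oocyte markers were low. Of the other members, hsp-12.3 was also higher in that array, and hsp-43, hsp-12.6 and sip-1 were lower. In tartrazine the arrays that differed in hsp-16 signal had nearly equal oocyte means. Their vitellogenin means (9.69 and 10.33 log2) were in the order of the hsp-16 signals, whereas those in Ponceau Red (10.66 and 1.98) ran against it. The part of oocyte content or stage in the order of the hsp-16 signals was not tested.

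Of the members expressed without stress, hsp-43 rose with both colorants. It read 7.10 and 6.74 log2 in the Ponceau Red arrays, 6.79 and 7.01 in the tartrazine arrays, and 5.20 and 5.31 in the water arrays. The 4 colorant arrays differed by at most 0.36 log2 and all lay well above water. The rise was 1.66 ± 0.20 log2 in Ponceau Red (SE, n = 2 arrays per group; 3.17-fold; 95% interval 1.14 to 2.19; limma adjusted p = 0.0277) and 1.65 ± 0.20 in tartrazine (3.13-fold; 95% interval 1.12 to 2.17; limma adjusted p = 0.0245). It was the 1 of 9 member probe sets that passed in Ponceau Red, where 2.89% of the 27568 probe sets passed, 0.138% as higher and 2.75% as lower. It was also the 1 of 9 that passed in tartrazine, where 4.38% passed, 0.519% as higher and 3.86% as lower. The signal in Ponceau Red array 3, whose oocyte and yolk markers were low, was 1.48 log2 above the water mean, and that in array 2 was 1.84 above it. Over the 6 arrays hsp-43 correlated with the oocyte marker mean at r = 0.78, and hsp-16.2 at 0.57. The part of oocyte content or stage in the rise of hsp-43 was not tested. The calls ended without either water array, where the limma adjusted p became 0.235 and 0.157 in the Ponceau Red comparison and 0.206 and 0.143 in that of tartrazine. They also ended without either tartrazine array, at 0.111 in the Ponceau Red comparison and 0.175 and 0.173 in that of tartrazine. In the second deposited table the rises for Ponceau Red and tartrazine were 1.62 and 1.04 log2. Both passed there without a block (limma adjusted p = 0.0341 and 0.0445), and neither did when trial was added as a block (0.104 and 0.0826). Under a trended robust prior the adjusted p was 0.0700 for Ponceau Red and 0.0529 for tartrazine, and with low signals left out the Ponceau Red call ended too (0.0548).

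**Figure D2:**
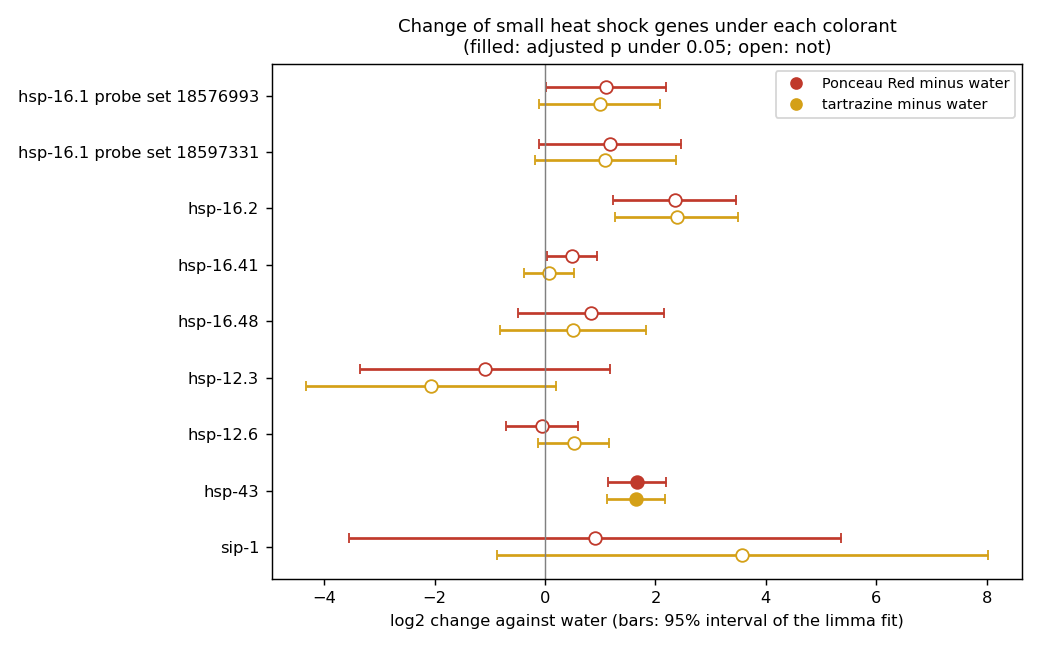
Log2 change of each member against water (horizontal axis), with Ponceau Red above tartrazine in every row and bars for the 95% interval of the limma fit; filled points passed an adjusted p of 0.05. The filled points are those of hsp-43, at 1.66 and 1.65, and the intervals of sip-1 and hsp-12.3 include 0.

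Over the arrays sip-1 followed the oocyte markers and hsp-12.3 ran against them. The gene sip-1, whose product is known from oocytes and embryos, read 7.87 and 2.78 log2 in the Ponceau Red arrays, 8.12 and 7.88 in the tartrazine arrays, and 5.08 and 3.76 in the water arrays. The tartrazine arrays were high and alike, and the Ponceau Red arrays lay on either side of both water arrays. The difference was 0.90 ± 1.71 log2 in Ponceau Red (limma adjusted p = 0.838) and 3.58 ± 1.71 in tartrazine (11.9-fold; 95% interval -0.88 to 8.03; limma adjusted p = 0.245). The groups share 1 estimate of the error, which holds the gap of 5.10 log2 between the Ponceau Red arrays. With only the 4 tartrazine and water arrays in the fit the tartrazine difference passed (3.58 ± 0.42 log2, limma adjusted p = 0.00110), as did 35.1% of all probe sets. Over the 6 arrays sip-1 correlated with the oocyte marker mean at r = 0.94. Without Ponceau Red array 2 the Ponceau Red difference was -1.65 log2, and without array 3 it was 3.45.

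The gene hsp-12.3, for a small protein of the family with short tails around the alpha-crystallin domain, ran the other way. It read 4.37 and 6.92 log2 in the Ponceau Red arrays, 4.35 and 5.0 in the tartrazine arrays, and 6.59 and 6.89 in the water arrays. Ponceau Red array 3 was at the level of water, and the other 3 colorant arrays were lower. The difference was -1.09 ± 0.87 log2 in Ponceau Red (limma adjusted p = 0.617) and -2.07 ± 0.87 in tartrazine (4.19-fold; limma adjusted p = 0.200). With only the 4 tartrazine and water arrays in the fit the tartrazine difference of hsp-12.3 passed (-2.07 ± 0.26 log2, limma adjusted p = 0.00154), as did 35.1% of all probe sets. Over the 6 arrays it correlated at r = -0.97 with the oocyte marker mean and at -0.96 with sip-1. Without Ponceau Red array 2 the Ponceau Red difference was 0.18 log2. The part of oocyte content or stage in the readings of sip-1 and hsp-12.3 was not tested.

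Next to it on chromosome IV, hsp-12.6, a DAF-16 target, differed little between groups. It read 4.39 and 4.07 log2 in the Ponceau Red arrays, 5.08 and 4.53 in the tartrazine arrays, and 4.27 and 4.31 in the water arrays. The tartrazine arrays lay above the other 4, and the Ponceau Red arrays lay on either side of water. The difference was -0.06 ± 0.25 log2 in Ponceau Red (limma adjusted p = 0.929; 0.16 with the arrays centred on their medians) and 0.52 ± 0.25 in tartrazine (limma adjusted p = 0.250).

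**Figure D3:**
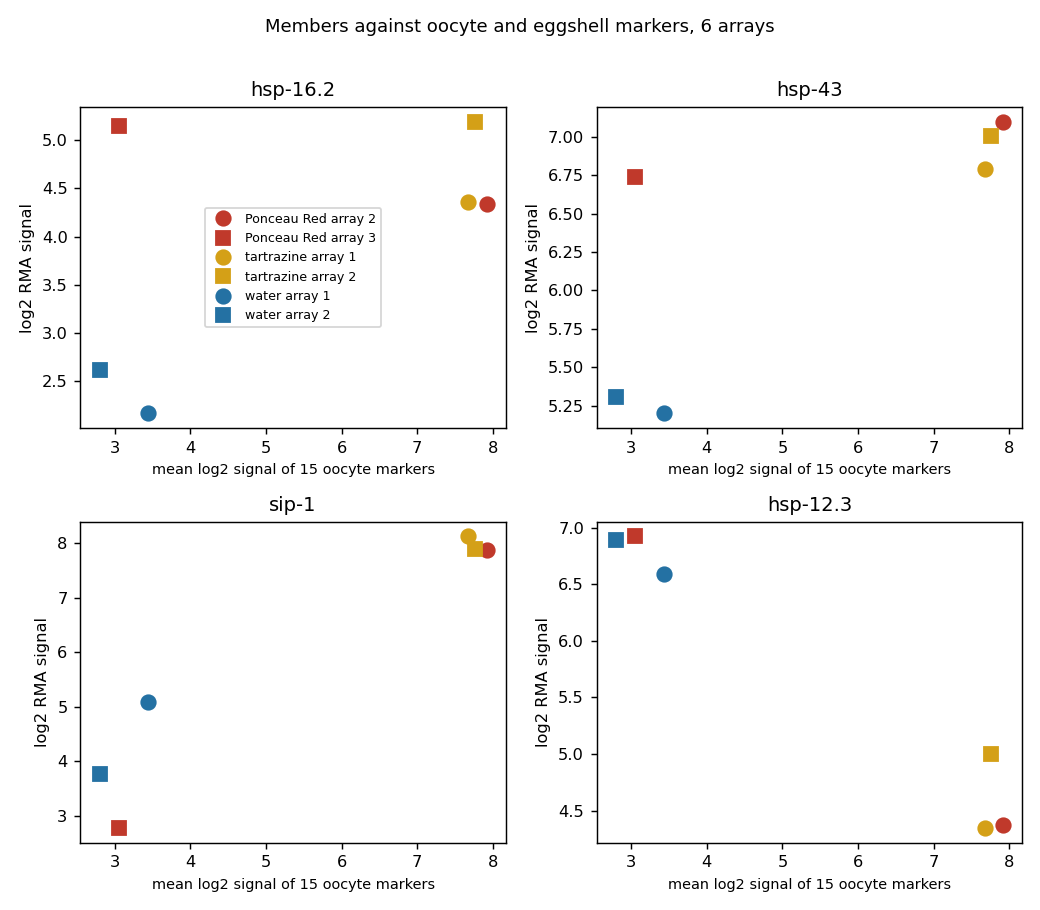
Log2 RMA signal of 4 members (vertical axis) against the mean log2 signal of 15 oocyte and eggshell genes (horizontal axis), 1 point per array, circles for the lower-numbered array of each group. Ponceau Red array 3, with an oocyte mean of 3.05, lies with the colorant arrays for hsp-16.2 (5.15) and hsp-43 (6.74) and with the water arrays for hsp-12.3 (6.92).

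Counted over members, arrays did not overlap and were higher in Ponceau Red than in water for 6 of 9 probe sets, the 5 hsp-16 probe sets and hsp-43, against 24.8% of all probe sets. In tartrazine 7 of 9 were higher without overlap, against 33.7%, namely both hsp-16.1 probe sets, hsp-16.2, hsp-16.48, hsp-12.6, hsp-43 and sip-1. Lower without overlap were 0 of 9 in Ponceau Red, where 23.1% of all probe sets were, and 1 of 9 in tartrazine (hsp-12.3), where 34.3% were. Both comparisons use the same water arrays. The 5 hsp-16 probe sets had a median difference of 1.11 log2 for Ponceau Red and 0.99 for tartrazine, beside 0.06 and 0.02 over all probe sets. For the 4 other members the medians were 0.42 and 1.08. With so few probe sets, some of which read the same copies, these are descriptions.

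Ponceau Red was also set against tartrazine. None of the 9 member probe sets passed in limma, 0 of 9 had an unadjusted p under 0.05, and 0.0% of all probe sets passed (4.51% with an unadjusted p under 0.05). For hsp-16.2 the difference was -0.03 log2 (95% interval -1.14 to 1.08) and for hsp-43 it was 0.02 (-0.50 to 0.54), so a difference of up to about 2-fold in hsp-16.2 was within the interval. The second deposited table gave 0.17 for hsp-16.2 and 0.58 for hsp-43. For hsp-16.41 both Ponceau Red arrays lay above both tartrazine arrays (0.42 ± 0.17 log2, limma adjusted p = 0.681), and 18.7% of all probe sets did so. For hsp-12.6 and sip-1 both lay below (-0.58 ± 0.25 and -2.67 ± 1.71 log2, limma adjusted p = 0.681 each), as did 16.8% of all probe sets. The other 4 intervals, those of both hsp-16.1 probe sets, hsp-16.48 and hsp-12.3, all included 0.

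Calls were also counted in the rest of the family and the wider heat shock system. Over all probe sets 2.89% passed in limma in Ponceau Red and 4.38% in tartrazine. Of 8 other small heat shock genes, 0 rose and 0 fell in Ponceau Red, and 2 had an unadjusted p under 0.05 (14.9% of all probe sets). In tartrazine 0 rose and 1 fell, where 3.86% of all probe sets passed as lower. There 3 had an unadjusted p under 0.05 (28.6% of all probe sets). The gene that fell was hsp-12.1, with 3.79 and 4.62 log2 in the Ponceau Red arrays, 3.47 and 4.04 in the tartrazine arrays, and 5.82 and 6.05 in the water arrays. It fell by 2.18 ± 0.36 log2 in tartrazine (4.52-fold; limma adjusted p = 0.0497), a call that ended with the arrays centred on their medians (adjusted p = 0.0716), with a trended robust prior (0.0593), without either water array (0.273 and 0.245) and without either tartrazine array (0.268 and 0.191). Its difference in Ponceau Red was -1.73 ± 0.36 log2 (limma adjusted p = 0.109). Both Ponceau Red arrays lay below both water arrays, as was so for 23.1% of all probe sets. The genes F08H9.3 and F08H9.4, named hsp-16.20 and hsp-16.21 in the RefSeq table, differed by 0.20 and -0.17 log2 in Ponceau Red and by -0.21 and -0.33 in tartrazine. Their signals were at most 2.16 and 2.08 log2. They lay below the median of all probe sets in every array and were not shown to be above background.

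Among 16 measured genes listed for cytosolic Hsp70, Hsp90, Hsp110 and their cochaperones, none passed for either colorant in limma. An unadjusted p under 0.05 was found for 2 in Ponceau Red (14.9% of all probe sets) and 4 in tartrazine (28.6%). The list medians were 0.42 and 0.06 log2. The 16 include aha-1, which encodes a transcription factor and no cochaperone. The heat-inducible Hsp70 gene hsp-70 read 2.94 and 3.79 log2 in the Ponceau Red arrays, 2.15 and 3.63 in the tartrazine arrays, and 2.51 and 2.08 in the water arrays. Its array order within each colorant was that of the hsp-16 genes, and the tartrazine arrays overlapped with water. The water signals of hsp-70 lay near the array medians over all probe sets (2.41 and 2.36) and were not shown to be above background. The constitutive Hsp70 gene hsp-1 read 10.91 and 11.01 in the Ponceau Red arrays, 10.07 and 10.69 in the tartrazine arrays, and 10.79 and 10.79 in the water arrays. The Hsp90 gene daf-21 read 6.24 and 6.47 in the Ponceau Red arrays, 5.80 and 5.92 in the tartrazine arrays, and 6.06 and 5.85 in the water arrays. The differences of hsp-1 and daf-21 were 0.17 and 0.40 log2 in Ponceau Red and -0.41 and -0.09 in tartrazine, and neither passed. The inducible Hsp70 genes F44E5.4 and F44E5.5 had no probe set of their symbol.

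The gene hsf-1, for the factor that drives hsp-16 transcription, read 6.54 and 6.81 log2 in the Ponceau Red arrays, 6.48 and 6.48 in the tartrazine arrays, and 5.70 and 5.91 in the water arrays. All 4 colorant arrays lay above water, as was so for 24.8% of all probe sets in Ponceau Red and 33.7% in tartrazine. The difference was 0.87 ± 0.18 log2 in Ponceau Red (limma adjusted p = 0.105) and 0.68 ± 0.18 in tartrazine (limma adjusted p = 0.110). In the list of 5 genes for this factor and its regulators 0 passed for either colorant. An unadjusted p under 0.05 was found for 1 in Ponceau Red (14.9% of all probe sets) and 3 in tartrazine (28.6%). The product of hsb-1 holds HSF-1 back. Its gene read 8.72 and 7.39 log2 in the Ponceau Red arrays, 9.35 and 8.74 in the tartrazine arrays, and 7.17 and 7.34 in the water arrays. The gene ddl-1, another negative regulator, read 6.47 and 5.54 in the Ponceau Red arrays, 7.42 and 7.03 in the tartrazine arrays, and 5.56 and 5.57 in the water arrays. For both, Ponceau Red array 3 was near water, as for the oocyte markers, whose part was not tested. The differences of hsb-1 and ddl-1 were 0.80 and 0.44 log2 in Ponceau Red and 1.79 and 1.66 in tartrazine, and none passed.

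Of 12 targets of DAF-16, the insulin-pathway factor that acts with HSF-1 on small heat shock genes, 1 rose and 0 fell in Ponceau Red, where 4 of 12 had an unadjusted p under 0.05 against 14.9% of all probe sets. In tartrazine 0 passed, and 9 of 12 had an unadjusted p under 0.05 against 28.6%. The gene that rose was lys-7, for a lysozyme, with 8.58 and 8.29 log2 in the Ponceau Red arrays, 7.76 and 8.10 in the tartrazine arrays, and 6.76 and 6.90 in the water arrays. It rose by 1.61 ± 0.21 log2 (limma adjusted p = 0.0325), a call that ended without either water array (0.264 and 0.169), without either tartrazine array (0.106), with low signals left out (0.0619) and in the second deposited table when trial was added as a block (0.106). The list medians were -0.44 log2 in Ponceau Red and -1.20 in tartrazine. By array, the median signal less the water mean was -0.98 log2 in Ponceau Red array 2 and 0.10 in array 3, and -1.36 and -1.02 for tartrazine. Only the list median of array 3 was near water, and single genes lay far from it in both directions. In that array mtl-1 read 5.03 log2, with 8.68 and 9.04 in the water arrays, and hil-1 read 7.02, with 4.05 and 4.06 in water. Of the 14 chaperonin and prefoldin subunits 0 passed, with medians of 0.14 and 0.08 log2. An unadjusted p under 0.05 was found for 0 in Ponceau Red and 4 in tartrazine, beside 14.9% and 28.6% of all probe sets. Of 4 mitochondrial and endoplasmic reticulum chaperones 0 passed, with medians of -0.12 and -0.47. There 0 and 2 had an unadjusted p under 0.05, beside the same 14.9% and 28.6%. For comparison, 0 of 15 oocyte genes and 0 of 6 vitellogenins passed for either colorant. Those with an unadjusted p under 0.05 were 2 and 0 in Ponceau Red (14.9% of all probe sets) and 13 and 6 in tartrazine (28.6%). Their medians were 2.39 and 4.31 log2 in Ponceau Red and 4.86 and 7.83 in tartrazine. The 7 zygotic embryo genes averaged 1.57 to 1.91 log2 in every array.

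**Figure D4:**
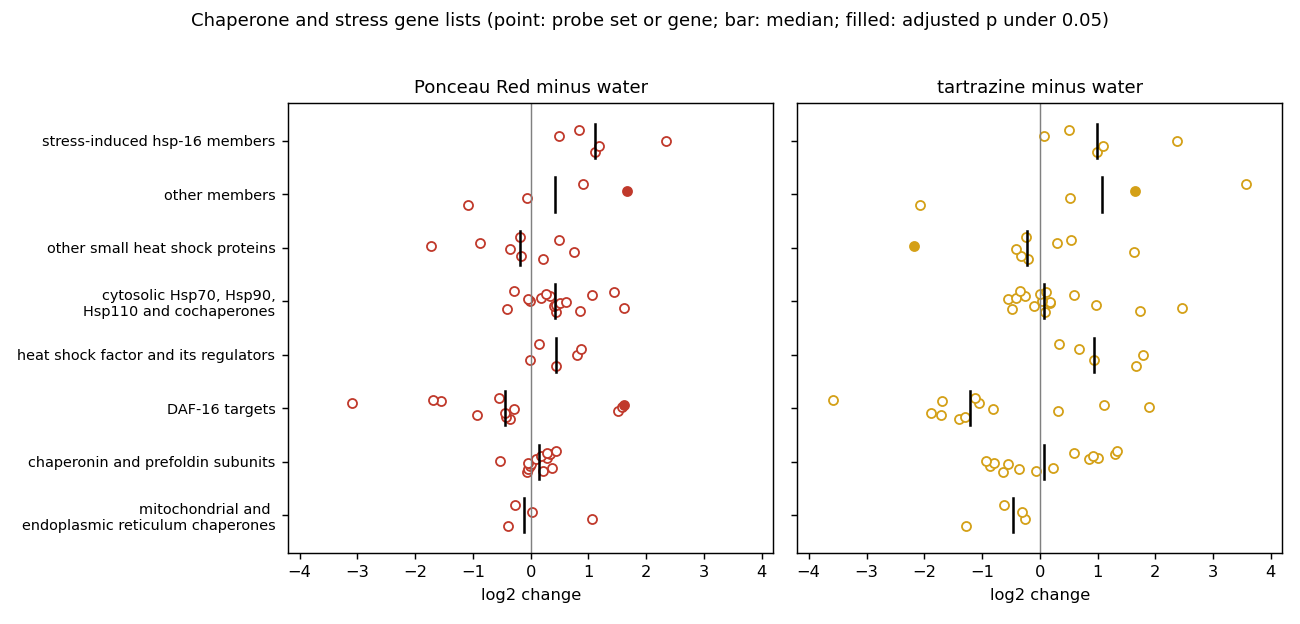
Log2 change against water (horizontal axis) of the genes in each chaperone and stress list, Ponceau Red left and tartrazine right; points are genes or member probe sets, bars list medians, and filled points passed an adjusted p of 0.05. The 5 hsp-16 probe sets lie right of 0 in both panels (medians 1.11 and 0.99), and the chaperonin and prefoldin subunits are centred near 0 (0.14 and 0.08).

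Genes with the most similar pattern over the 6 arrays were taken from 10328 protein-coding probe sets with a range of at least 1 log2. For hsp-16.2 these were F59E12.6, nud-2, F54C8.1 and pro-2 (r = 0.995, 0.994, 0.993 and 0.993). The nud-2 signal, for example, was 7.46 and 7.80 log2 in the Ponceau Red arrays, 7.60 and 7.79 in the tartrazine arrays, and 6.45 and 6.68 in the water arrays. For hsp-43 they were F15E6.3, the C-type lectin gene clec-55, ari-1.3 and mask-1 (r = 0.994, 0.994, 0.993 and 0.992). The clec-55 signal was 6.13 and 5.11 log2 in the Ponceau Red arrays, 5.34 and 6.0 in the tartrazine arrays, and 2.74 and 3.00 in the water arrays. For sip-1 they were the meiotic gene dsb-1, C05C10.5, the securin gene ify-1 and the replication origin gene orc-3 (r = 0.998, 0.998, 0.998 and 0.997). The dsb-1 signal was 7.02 and 2.11 log2 in the Ponceau Red arrays, 7.15 and 7.27 in the tartrazine arrays, and 4.44 and 3.23 in the water arrays. With 6 points in 3 groups and this many candidates, such correlations describe likeness only. Between members, hsp-16.2 correlated at r = 0.94 and 0.93 with the hsp-16.1 probe sets and at 0.93 with hsp-43, and at 0.31 with sip-1.

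The authors' own comparisons were deposited as well. In the authors' deposited table for Ponceau Red the ratio of treated over control was 4.55 for hsp-16.2 (unadjusted p = 0.0190), 1.82 and 2.03 for the hsp-16.1 probe sets (0.134 and 0.0741) and 2.33 for hsp-43 (0.0764). The remaining members had ratios of 1.05 to 1.63 in the authors' deposited table, with unadjusted p of 0.203 to 0.968. Among them hsp-12.3 (1.05) and hsp-12.6 (1.22) had ratios above 1, whereas their differences from water in the main fit were -1.09 and -0.06 log2. The authors' deposited table for tartrazine lists 1746 probe sets, of which hsp-16.2 was the 1 member, with a ratio of 4.15 (unadjusted p = 0.0436). The sums of squares in both of the authors' deposited tables fitted groups of 3 and 2 arrays. They therefore include an array that is not analysed here, and its identity is not given in the sources used here. These p-values are not adjusted for the number of probe sets.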

How the data were processed

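The log2 signals per transcript were made by the authors with RMA, which the submitters' processing notes name. Neither its version nor the annotation release is given in the sources used here. Another deposited table, called the second here, holds log2 RMA signals per labelled sample. The authors' deposited tables of comparisons give a ratio of treated over control and an unadjusted p-value, the Ponceau Red column holding a question mark for 485 probe sets, and sums of squares as a score.

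Of 29317 probe sets, 27568 with a gene name were tested and 1749 without one were not. Accessions (24021) or symbols (3301) were looked up in a RefSeq table, and 246 names are the file's own. limma 3.58.1 in R 4.3.3 (lmFit, eBayes; group only; 3 residual and 1.788 prior degrees of freedom) was fitted to all 6 arrays without a filter, with two-sided p-values adjusted by Benjamini-Hochberg over all tested probe sets and a threshold of 0.05. A filter on low signal, used as an alternative, kept 8 of the 9 member probe sets. The fit was checked on simulated data. Arrays were grouped by the treatment in the column names, which give no labelled trial. The members and gene lists were chosen with earlier results of these data known. Every member is named, with list genes that passed or that a member result turns on, and the 4 genes most similar to hsp-16.2, hsp-43 and sip-1. A gene on several probe sets was taken at the brightest in the lists. No sequence is shown.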

Additional observations from a re-analysis of the deposited data

How the results depend on the processing

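With 2 arrays per group the counts of calls depend on the array set. The p-values of the main fit rest on 3 residual and 1.788 prior degrees of freedom. Fits with fewer arrays or with a block have fewer residual ones. For Ponceau Red 796 probe sets passed against water; 263 did in the second deposited table with the labelled trial as a replicate block, 127 with only the 4 arrays compared, and 0 to 7205 with 1 array left out. For tartrazine 1208 passed, 2801 in the second table, 9690 with only the 4 arrays compared, and 0 to 9690 with 1 array left out. Between the colorants 0 passed, and 0 to 7638 with 1 array left out, the highest without Ponceau Red array 2. Of the 9 member probe sets, 1 passed in Ponceau Red, 2 in the second table, 0 with only the 4 arrays compared, with low signals left out or with a trended robust prior, and 0 to 4 with 1 array left out. In tartrazine 1 passed, 2 in the second table, 5 with only the 4 arrays compared (hsp-16.1 probe set 18576993, hsp-16.2, hsp-12.3, hsp-43 and sip-1), 2 with low signals left out, 0 with a trended robust prior, and 0 to 5 with 1 array left out. Between the colorants 0 to 3 passed with 1 array left out. An array left alone in its group was assumed to vary like the others. Leaving out an array of the group not compared gave the values of comparing only the 4 arrays. The alternatives are thus not all separate checks. Without water array 1 or 2 no probe set passed, with 2248 and 2812 at an unadjusted p under 0.05 for Ponceau Red and 3425 and 3967 for tartrazine. Among the members, 2 to 5 had an unadjusted p under 0.05 in the Ponceau Red and tartrazine fits where none passed.

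The planned block was not run on the main table, whose columns name no labelled trial. It was added after seeing the data, on the second table. There 1 member passed per colorant, hsp-16.2 (limma adjusted p = 0.0484 in Ponceau Red and 0.0372 in tartrazine), and the adjusted p of hsp-43 was 0.104 and 0.0826. Of all probe sets, 0.954% passed in that fit in Ponceau Red and 4.34% in tartrazine. The differences between labelled trials correlated at -0.04 between Ponceau Red and tartrazine, 0.04 between Ponceau Red and water and 0.16 between tartrazine and water. Each group gives a single such difference, and other differences between its arrays enter it. These values cannot decide whether trial numbers pair the samples.

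Without Ponceau Red array 2 or array 3, hsp-16.2 passed in Ponceau Red (limma adjusted p = 0.00938 and 0.0133), as did hsp-43 (0.0108 and 0.00185). Without array 2 hsp-16.48 (1.54 log2, 0.0201) and hsp-16.1 probe set 18576993 (1.55, 0.0434) passed too; without array 3 sip-1 (3.45, 0.00437) and hsp-12.3 (-2.37, 0.00316) did. These fits had 11.4% and 26.1% of all probe sets passing. Over its 12 alternatives hsp-16.2 had adjusted p-values of 0.00938 to 0.440 in Ponceau Red and 0.00184 to 0.331 in tartrazine, and hsp-43 of 0.00185 to 0.235 and 0.000813 to 0.206.

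Some signs turned. In Ponceau Red minus water hsp-12.6 gave 0.16 with centred arrays and 0.049 in the second table, with and without the block. With 1 array left out, it ranged from -0.22 to 0.10, hsp-12.3 from -2.37 to 0.18 and sip-1 from -1.65 to 3.45. In tartrazine minus water the second table gave -0.19 for hsp-16.41 and -0.052 for hsp-16.48, with and without the block, and hsp-16.41 ranged from -0.0055 to 0.15 with 1 array left out. In Ponceau Red minus tartrazine hsp-16.2 gave 0.17 in the second table, with and without the block. With 1 array left out the ranges were -0.45 to 0.38 for hsp-16.2, -0.32 to 0.56 and -0.48 to 0.65 for the hsp-16.1 probe sets, -0.38 to 1.03 for hsp-16.48, -0.30 to 2.25 for hsp-12.3 and -0.16 to 0.20 for hsp-43. The cause of these turns was not tested. Some alternatives repeat a fit, so the counts below hold some values more than once. Of the other member values under alternatives, 258 kept direction and side of the threshold, 26 newly passed and 14 no longer passed.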
